A study of Mus musculus with 4 samples.

Results

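The satellite cell and myogenic factors examined here were 10 genes, Pax7, Myf5, Myod1, Myog, Myf6, Mymk, Mymx, Mef2c, Cdh15 and Ncam1, chosen by name from the 32285 features of the count tables. All 10 were found, and each had UMIs in all 4 sections (UMI, unique molecular identifier, a count of captured RNA molecules). Spatial transcriptomes had been made from fresh frozen tibial muscle of Nse-Bmp4 mice on the C57BL/6 strain, aged 6 to 8 weeks, either uninjured (day 0) or taken 1, 3 and 7 days after injury with cardiotoxin, a snake venom toxin that kills muscle fibres. All 4 groups carried the transgene, in which a neuron-specific enolase promoter drives Bmp4, and which makes injured muscle form bone (heterotopic ossification). No section without the transgene was analysed here, and the labels say that 3 tibial muscles were mixed for each group, without saying how these relate to the single section of a day, so the number of animals behind a section is not known. Each day was 1 section, so no spread between animals could be measured, no p-value is given, and every interval below is a 95% interval that covers counting error only.

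Satellite cells are the resident stem cells of skeletal muscle and lie between a fibre and its basement membrane, where they are marked by the transcription factor PAX7. After injury they divide, turn on the myogenic regulatory factors (MYF5, MYOD1, myogenin and MYF6, a family of related DNA-binding proteins that recognise the E-box sequence), leave the cell cycle and fuse into new fibres. New fibres first make embryonic forms of the contractile proteins and exchange them for adult forms as they mature.

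The sections held 2107 to 3032 spots and 16777832 to 56113066 UMIs, and the day 1 section was the shallowest, with a median of 6322 UMIs per spot against 12119.5 to 21029 in the others. A spot is a small area of the capture array that can hold RNA of several cells, and spots of a section are not replicates. A barcode names a position on the array, and 1341 barcodes occurred in all 4 sections. The tissue matched its label in that 13 adult myofibre genes took 8.41% to 25.5% of UMIs, most in the uninjured section and least at day 3. Genes of liver, pancreas, kidney and lung (Alb, Ins2, Umod and Sftpc) had 3 to 29 UMIs per section in all. Levels are given as CPM, the UMIs of a gene scaled to a section total of 1000000. In such data fewer cells of a type and less RNA per cell cannot be told apart.

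Upstream sequence was looked up for the 10 genes because several of them moved together at day 3, and 5 had an entry in the RefSeq promoter table (GRCm38.p6). Myod1, Myf6, Mymk, Mymx and Ncam1 had none. The 250 bases before the start of Myog (chr1:134289754-134290003, plus strand) and of Cdh15 (chr8:122848124-122848373, plus strand) are shown. Both genes, a myogenic factor and an adhesion molecule, were over 2-fold higher at day 3 than at day 0 (4.35-fold and 3.37-fold). Capitals mark matches to the E-box letters CANNTG, which read the same on both strands.
Myog: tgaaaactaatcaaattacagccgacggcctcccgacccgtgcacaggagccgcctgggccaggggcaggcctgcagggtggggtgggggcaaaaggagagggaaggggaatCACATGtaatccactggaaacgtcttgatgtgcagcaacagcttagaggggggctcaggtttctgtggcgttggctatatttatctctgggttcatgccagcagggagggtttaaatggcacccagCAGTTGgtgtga
Cdh15: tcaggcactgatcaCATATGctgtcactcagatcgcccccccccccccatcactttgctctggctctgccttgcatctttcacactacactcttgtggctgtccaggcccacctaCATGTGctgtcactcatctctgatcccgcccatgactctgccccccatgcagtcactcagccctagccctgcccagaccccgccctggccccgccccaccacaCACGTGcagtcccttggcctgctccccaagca
The Myog window held 2 E-box matches and the Cdh15 window 3, and a match was present in 66.2% of the 32851 windows of this length in the table. The letters TCAGGTT, the core of the MEF3 motif, occurred in the Myog window, on its plus strand, and in 3.49% of all windows on either strand. A match is a description of letters and not a binding site.

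The injured sections differed in which of these genes they held, and in CPM 8 of the 10 genes had their highest level at day 3 and 8 had their lowest at day 1, although with TMM factors, described below, Cdh15 was lowest at day 7. The exceptions at the top were Myf6, highest at day 1, and Mef2c, highest at day 7. The share of all genes highest or lowest on these days was not counted, so neither count is read as particular to these genes. The fusion genes Mymk and Mymx were nearly absent at day 1 and had the largest gains at day 3.

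**Figure D1:**
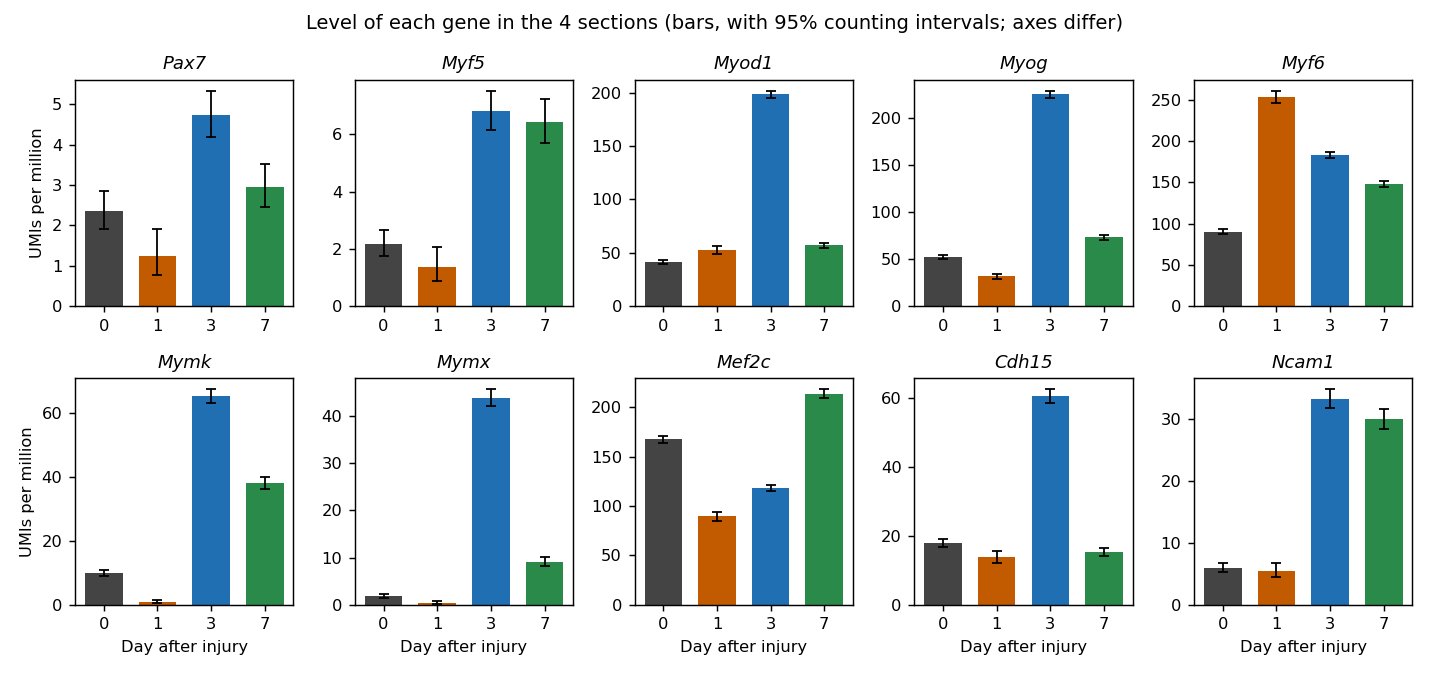
Level of each of the 10 genes (CPM, linear axes that start at 0 and differ between panels) in the day 0, 1, 3 and 7 sections, with 95% exact Poisson intervals; each bar is 1 section. Day 3 holds the tallest bar for 8 genes, Myf6 is tallest at day 1 (253 CPM) and Mef2c at day 7 (214 CPM).

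Pax7, the marker of satellite cells and a factor that maintains them, was rare in every section. The uninjured section held 103 UMIs (2.35 CPM, 1.92 to 2.85) and the day 1 section 21 (1.25 CPM, 0.775 to 1.91). Day 3 held 266 (4.74 CPM, 4.19 to 5.35) and day 7 held 124 (2.96 CPM, 2.47 to 3.53). The day 3 level stood above the other 3, and the levels at days 0 and 7 did not differ beyond counting error (ratio 1.26, 0.964 to 1.66). Against day 0, Pax7 was 2.02-fold higher at day 3 (1.60 to 2.56), at the edge of the 2-fold rule used here to call a difference.

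Myf5, the myogenic factor already expressed in many quiescent satellite cells, was measured at 2.17, 1.37, 6.81 and 6.43 CPM on days 0, 1, 3 and 7, from 95, 23, 382 and 269 UMIs. Unlike Pax7 it was as high at day 7 as at day 3 within counting error (ratio 0.945, 0.805 to 1.11), and at both days it was about 3-fold above day 0 (3.14 at day 3, 2.51 to 3.98, and 2.97 at day 7, 2.34 to 3.79). Days 0 and 1 did not differ beyond counting error (ratio 0.633, 0.383 to 1.01).

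Myod1, the factor that commits activated satellite cells to the muscle lineage, was measured at 41.4, 52.3, 198 and 56.9 CPM on days 0, 1, 3 and 7. With Myf6 it was above day 0 in CPM already in the day 1 section (ratio 1.26, 1.16 to 1.37). This difference depended on scaling. With the TMM factors described below, the log2 ratio of Myod1 went from 0.34 to 0.13, while that of Myf6 was 1.28. At day 3 Myod1 stood 4.79-fold above day 0 (4.55 to 5.03). By day 7 it was 3.48-fold lower than at day 3 (3.33 to 3.64).

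Myog, which encodes myogenin and is switched on as myoblasts leave the cell cycle and differentiate, was measured at 51.6, 31.5, 225 and 73.3 CPM on days 0, 1, 3 and 7. Day 1 was the lowest and day 3 the highest. The day 3 level was 4.35-fold that of day 0 (4.16 to 4.56) and 7.14-fold that of day 1 (6.55 to 7.81).

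Myf6, the member of the family most abundant in mature fibres, went another way. Its levels were 90.1, 253, 183 and 148 CPM on days 0, 1, 3 and 7, from 3954, 4252, 10283 and 6178 UMIs. All 3 injured sections were above day 0, and each later section was below the one before it. At day 1 it was 2.81-fold above day 0 (2.69 to 2.94), in the section where Pax7, Myf5, Myog, Mymk and Mymx were at their lowest. Myf5 and Myf6 are neighbours on chromosome 10, at chr10:107482908-107486927 and chr10:107492848-107494723 (GRCm38.p6), with 5920 bases between them, and their lowest and highest days differed.

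Mymk encodes myomaker and Mymx encodes myomixer, membrane proteins of muscle cells that drive their fusion. Mymk levels were 10.0, 1.01, 65.2 and 37.9 CPM on days 0, 1, 3 and 7, from 439, 17, 3659 and 1586 UMIs. Mymx levels were 1.78, 0.417, 43.9 and 9.11 CPM, from 78, 7, 2463 and 381 UMIs. Both were lowest at day 1, highest at day 3 and still above day 0 at day 7, and no 2 sections overlapped in their intervals for either gene. At day 1 Mymk was 9.88-fold lower than at day 0 (6.10 to 17.1) and Mymx 4.26-fold lower (1.97 to 10.9). Between days 1 and 3 Mymk differed 64.4-fold (40.1 to 111) and Mymx 105-fold (51.0 to 262), which rests on the few UMIs of day 1. The pair then parted, since day 7 was 1.72-fold below day 3 for Mymk (1.62 to 1.83) and 4.82-fold below for Mymx (4.32 to 5.38).

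Cdh15 encodes M-cadherin, an adhesion molecule of satellite cells and myoblasts, and was measured at 17.96, 13.8, 60.6 and 15.3 CPM on days 0, 1, 3 and 7. Its day 3 level was 3.37-fold that of day 0 (3.12 to 3.65), and its day 7 level was below that of day 0 (ratio 0.852, 0.766 to 0.947). Ncam1, an adhesion molecule of activated satellite cells, new fibres, nerve and the neuromuscular junction, was measured at 5.95, 5.48, 33.2 and 29.9 CPM. The 2 adhesion genes therefore had different levels after day 3, with Ncam1 5.03-fold above day 0 at day 7 (4.396 to 5.77). Days 0 and 1 did not differ beyond counting error for Ncam1 (ratio 0.922, 0.719 to 1.17).

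Mef2c, a partner of the myogenic factors that is also used by adult fibres and by endothelial and cartilage cells, was measured at 167, 89.8, 119 and 214 CPM on days 0, 1, 3 and 7. It was the only one of the 10 to be lower at day 3 than at day 0 (ratio 0.708, 0.685 to 0.732). Day 7 stood above all other sections in CPM, 1.81-fold over day 3 (1.75 to 1.86), although with the TMM factors described below day 0 stood above it.

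Counted by the 2-fold rule, 9 of the 10 genes were higher at day 3 than at day 0, where 33.3% of the 16281 genes tested were higher, and none was lower (background 8.26%). At day 1 against day 0, 1 gene was higher (Myf6, background 17.4%) and 2 were lower (Mymk and Mymx, background 11.4%). At day 7 against day 0, 4 were higher (Myf5, Mymk, Mymx and Ncam1, background 32.7%), a share near the background, and none was lower (background 2.13%). From day 1 to day 3, 8 were higher (all but Myf6 and Mef2c, background 18.1%) and none lower (background 3.13%), and from day 3 to day 7, 4 were lower (Myod1, Myog, Mymx and Cdh15, background 11.8%) and none higher (background 16.1%). The comparisons with day 0 share its section, and the others share the day 3 section.

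The scaling of sections changed some of these calls. The median over all genes tested was 0.58 (log2) at day 3 and 0.65 at day 7 against day 0, and TMM factors, which set each section to the bulk of its genes, lowered every log2 ratio to day 0 by 0.55 at day 3 and 0.61 at day 7. With TMM factors 7 of the 10 were over 2-fold higher at day 3 (background 19.8%), with Pax7 at a log2 ratio of 0.47 and Myf6 at 0.48. Mef2c stood at -1.05, past the rule for lower (background 16.4%). At day 7 against day 0 the signs of Pax7 (0.34 to -0.27), Myod1 (0.46 to -0.15), Myog (0.51 to -0.10) and Mef2c (0.35 to -0.25) turned with TMM factors, so no direction is given for them there. Myf5 at day 7 stood at 0.96 with TMM factors, just under 2-fold. At day 1 the lower genes with TMM factors were 4 (background 15.1%), with Pax7 at -1.11 and Mef2c at -1.11 beside Mymk and Mymx.

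**Figure D2:**
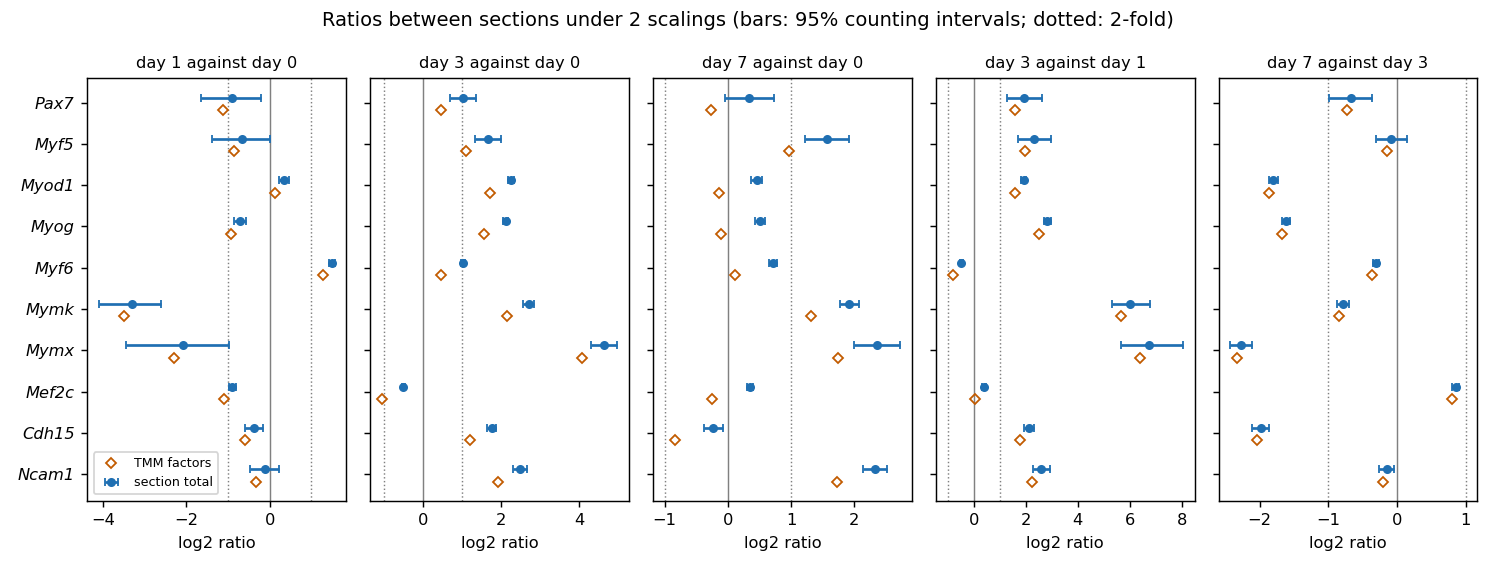
Log2 ratio of each gene's level in 5 comparisons of sections, from CPM (filled circles, with 95% counting intervals) and with TMM factors (open diamonds); dotted lines mark 2-fold and the horizontal scales differ between panels. The diamonds lie to the left of the circles in all 5 panels, and Mymk and Mymx lie farthest right at day 3 against day 1 (log2 ratios of 6.01 and 6.72).

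Genes that work with or against the myogenic factors were described from fixed lists. The 7 inhibitors include the ID proteins, which bind E proteins and keep them from myogenic factors. Of the 7, 5 were over 2-fold higher at day 3 than at day 0 (background 33.3%) and 7 at day 7 (background 32.7%). Their median log2 ratio was 1.90 and 2.47. With TMM factors 5 were higher at either day (background 19.8% and 15.7%). Among the regions described below, the list summed to most in region 6 at day 3 (594.997 CPM), where Myog was highest too. At day 7 it summed to most in region 5, led by cartilage and bone genes (1055.45 CPM). In region 8 of that day, where Myog was highest, it summed to 264.727 CPM. Which cells held these RNAs was not tested. Id3 levels were 33.6, 91.7, 177 and 186 CPM on days 0, 1, 3 and 7, and Id2 levels 6.13, 18.7, 67.8 and 37.4. Among partners of the factors, Tcf3, an E protein singled out after its values were seen, had 13.6 CPM at day 0 and 31.4 at day 3. Mef2d had 110 and 107 CPM on these days and Mef2a 72.9 and 94.3, both under 2-fold. With TMM factors Tcf3 was under 2-fold as well.

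Of 17 genes of the satellite cell niche and of quiescence, 8 were over 2-fold higher at day 3 than at day 0 (background 33.3%). In the same comparison 3 were lower (background 8.26%). Their median log2 ratio was 0.73, against 0.58 over all genes tested. Among the higher ones were Itga7, a laminin receptor subunit of muscle (54.0 CPM at day 0 and 252 at day 3), and Sdc3, a syndecan of satellite cells (30.4 and 143 CPM). Cd34, also found on endothelial cells, had 127 and 75.2 CPM, a difference under 2-fold in CPM but over 2-fold lower with TMM factors. The lower ones, named after their values were seen, were Pax3, Calcr and Chrdl2, and Calcr, the calcitonin receptor of quiescent satellite cells, had 51, 1, 13 and 30 UMIs on days 0, 1, 3 and 7. With TMM factors 5 were higher (background 19.8%) and 6 lower (background 16.4%). Of 10 other fusion and adhesion genes, 3 were higher at day 3, a share near the background of 33.3%, and none lower (background 8.26%). The 3 were Cdh2, Myof and Nphs1, named after their values were seen, the last from 1 UMI at day 0 and 62 at day 3. The most abundant of the 10, Cd81, had 250 CPM at day 0 and 233 at day 3.

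Genes of new fibres did not all follow the members' days. Myh3, the embryonic myosin heavy chain, was measured at 1.73, 1.19, 107 and 73.7 CPM on days 0, 1, 3 and 7, and Tnnt2, the cardiac troponin T also made by new fibres, at 3.40, 2.92, 64.7 and 64.2. Myl4 (16.1, 16.3, 222 and 360 CPM) and Myh8, the perinatal myosin (3.10, 1.01, 6.88 and 179 CPM), were highest at day 7. Mybph, listed with them, ran the opposite way (961, 296, 152 and 426 CPM) and made up 97.5% of this list before injury (97.4 to 97.7) and 27.4% on day 3 (26.9 to 27.9), so the list is also given without it. Markers of other cells moved at day 3 as well. Against day 0, 9 of 9 monocyte/macrophage genes and 7 of 7 cell cycle genes were over 2-fold higher (background 33.3%). Of 13 adult myofibre genes 11 were lower (background 8.26%). The part of the cells marked by these lists in the members' levels was not tested.

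At the level of spots, the same order was seen for most members once every spot was thinned to 2000 UMIs. Myod1 was found, with at least 1 UMI, in 7.61% (6.51 to 8.83), 8.94% (7.74 to 10.2), 28.8% (27.2 to 30.4) and 9.59% (8.56 to 10.7) of spots on days 0, 1, 3 and 7. Myf6 was found in 16.6%, 36.1%, 31.4% and 24.0% of spots in the same order. Mymk was found in 1.76%, 0.216%, 7.72% and 4.01%. The share therefore separated day 1 for Myf6 from day 3 for Myod1 and Mymk, as the CPM did. For Myog the shares were 9.27%, 5.24%, 21.8% and 7.61%, and since its CPM was higher at day 7 than at day 0, no order of those 2 days is read from the shares. Pax7 was found in 0.221% to 0.656% of thinned spots, and its interval at day 1 (0.0754% to 0.541%) reached down to the highest share of these 4 genes of absent tissues (0.0885%). Without thinning the day 0 and day 3 shares were 4.56% and 7.46% for Pax7 and 51.7% and 60.3% for Myog. Thinning left out 513 spots of day 1 and 9 to 84 of the others.

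**Figure D3:**
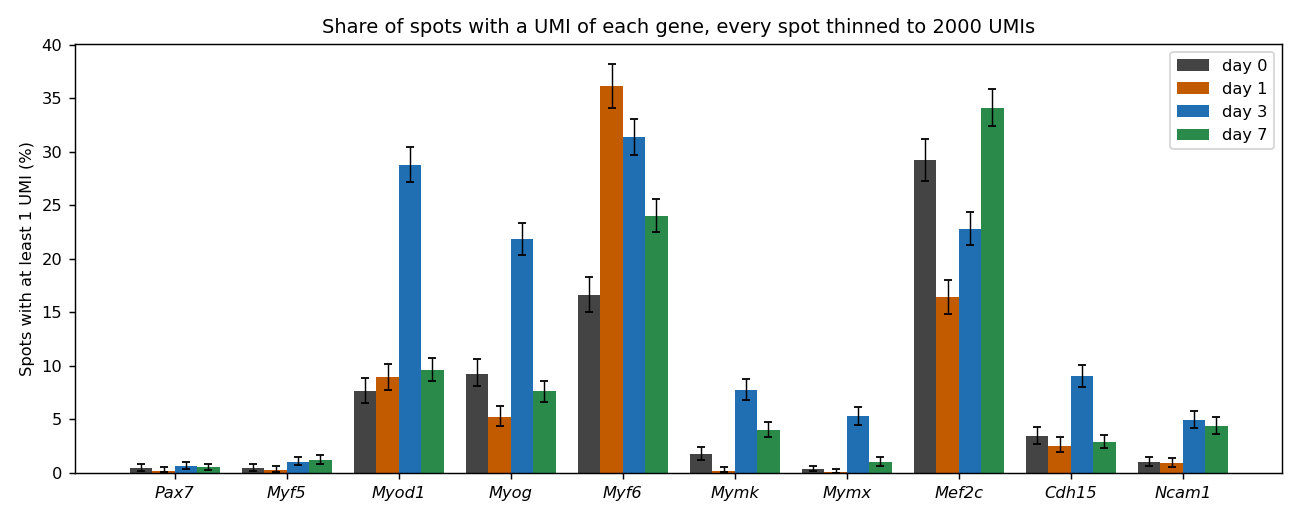
Share of spots (percent) with at least 1 UMI of each gene after every spot was thinned to 2000 UMIs, as the mean of 20 draws, by section, with 95% Clopper-Pearson intervals that treat spots as independent. Myod1 and Myog are highest at day 3 (28.8% and 21.8%), Myf6 at day 1 (36.1%) and Mef2c at day 7 (34.1%).

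Within a section, RNA of the late myogenic genes was concentrated in the spots with most embryonic sarcomere RNA. At day 3, the 757 spots (25%) richest in that list had 451 CPM of Myog against 110 in the other 2272 spots, a 4.10-fold difference (3.95 to 4.26). Mymk had 147 against 23.9 CPM (6.13-fold, 5.68 to 6.62) and Mymx 100 against 15.2 CPM (6.62-fold, 6.02 to 7.29). The rich spots were also deeper, with a median of 23704 UMIs against 13844.5, and depth cancels in CPM only where the mix of RNA is alike. Earlier members differed less between the same spots, namely Pax7 (6.83 against 3.68 CPM, 1.86-fold), Myf5 (9.53 against 5.43 CPM, 1.76-fold) and Myod1 (248 against 173 CPM, 1.44-fold). Myf6 had 168 against 191 CPM and Mef2c 113 against 121, so neither was higher there. Counted by the 2-fold rule, 5 of 10 members were higher in the rich spots at day 3 (Myog, Mymk, Mymx, Cdh15 and Ncam1, background 4.25% of genes), and with the list without Mybph they were 6, with Pax7 added (background 5.08%).

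At day 7 the same division held 145 against 40.2 CPM of Myog (3.61-fold, 3.35 to 3.89), 90.6 against 13.6 CPM of Mymk (6.67-fold, 5.94 to 7.50) and 21.0 against 3.63 CPM of Mymx (5.77-fold, 4.59 to 7.31). Without Mybph in the list the Mymk difference was 10.5-fold (9.18 to 12.1). Myf6, lower in such spots at day 3, was higher in them at day 7 (205 against 121 CPM, 1.69-fold, 1.61 to 1.78). Over 2-fold higher at day 7 were Pax7, Myf5, Myog, Mymk and Mymx (5 of 10, background 4.22%). At day 0 none of the 10 was over 2-fold higher in the spots richest in the list (background 0.801%), with Myog at 58.2 against 49.5 CPM. At day 1, Pax7 and Mymk were counted as higher (background 0.946%), from 21 and 17 UMIs in all, and the interval of Pax7 (0.829 to 5.65) reached below 1. Mybph made up 97.5% of the list's UMIs at day 0 and 93.2% at day 1, so on these days the division mostly followed Mybph. With the list without Mybph none was over 2-fold higher at day 0 (background 1.72%) and Mymk alone at day 1 (background 1.74%).

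The spots richest in adult myofibre RNA gave the reverse picture at day 3. Myog had 31.7 CPM there against 256 elsewhere, Mymk 6.86 against 74.7 and Mymx 4.70 against 50.3. By the 2-fold rule 7 of 10 were lower in these spots (Pax7, Myf5, Myog, Mymk, Mymx, Cdh15 and Ncam1), where 30.6% of all genes were lower. Myf6 (294 against 165 CPM, 1.78-fold, 1.70 to 1.87) and Mef2c (171 against 110 CPM, 1.55-fold, 1.46 to 1.65) were higher. Myod1 lay between, at 151 against 206 CPM. The adult myofibre genes that chose these spots are also part of the CPM total. With a total that left out mitochondrial, haemoglobin and adult myofibre genes, 6 were over 2-fold lower (the same without Cdh15, background 18.5%). Myf6 was then over 2-fold higher (background 9.94%). At day 1 Myog had 5.54 CPM in the myofibre-rich spots and 43.2 elsewhere (ratio 0.128, 0.0849 to 0.186), while at day 0 it had 55.4 and 50.4.

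Macrophage-rich spots held the members in a pattern that differed between days 3 and 7. In the 757 spots of day 3 with most monocyte/macrophage RNA, Pax7 was 2.39-fold higher (7.65 against 3.19 CPM, 1.87 to 3.08) and Myf5 2.15-fold higher (10.5 against 4.86 CPM, 1.75 to 2.65), while Myf6 was at 73.5 against 242 CPM (ratio 0.304, 0.287 to 0.322). Myog differed 1.59-fold and Mymk 1.35-fold. At day 7 the largest differences in such spots were those of Mymx (20.7 against 3.57 CPM, 5.79-fold, 4.597 to 7.35), Mymk (79.0 against 18.2 CPM, 4.33-fold) and Myog (147 against 38.0 CPM, 3.87-fold), while Pax7 was 1.67-fold higher. The change between the days was not tested.

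**Figure D4:**
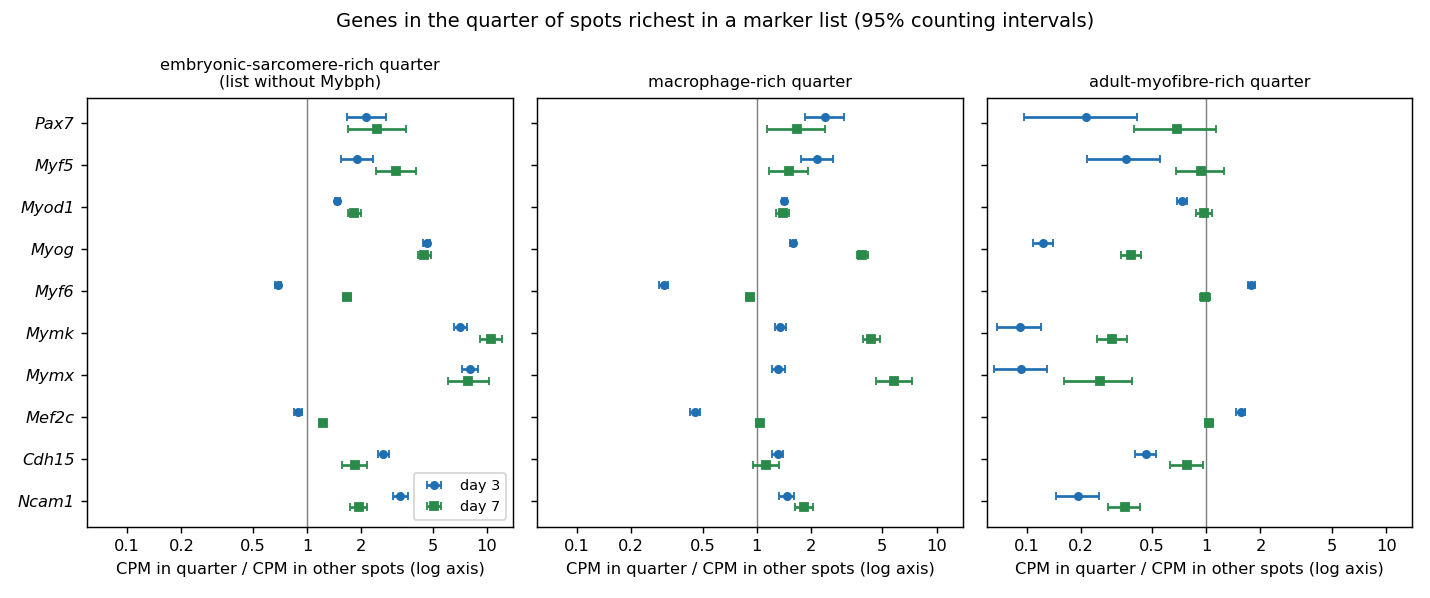
Ratio of CPM in the 25% of spots richest in a marker list to CPM in the other spots (log axis), for each gene at day 3 (circles) and day 7 (squares), with 95% counting intervals. The embryonic sarcomere panel uses the list without Mybph, so its ratios differ from those given in the text for the full list. Myog, Mymk and Mymx lie right of 1 in spots rich in embryonic sarcomere RNA and left of 1 in spots rich in adult myofibre RNA on both days. Myf6 at day 3 lies on the opposite side in both of these panels.

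Chondrogenic RNA was present at day 7, and the members differed in their levels where it was most abundant. In the 758 spots richest in chondrogenic RNA at day 7, Myf6 had 96.6 against 166 CPM (ratio 0.582, 0.544 to 0.622), Mymk 26.1 against 42.2 and Myf5 4.62 against 7.08. Mef2c, which is also a factor of cartilage maturation, had 176 against 228 CPM. Ncam1 was higher there, with 41.8 against 25.6 CPM (1.63-fold, 1.45 to 1.83). Myog (70.3 against 74.3 CPM, ratio 0.945, 0.870 to 1.03) and Pax7 (2.17 against 3.25 CPM, ratio 0.669, 0.410 to 1.05) did not differ beyond counting error. At day 0 the largest spot difference of Ncam1 was in the spots richest in Schwann cell RNA (11.6 against 4.22 CPM, 2.75-fold, 2.14 to 3.54), and Myog was higher in the same spots (62.6 against 48.3 CPM, 1.30-fold, 1.18 to 1.42).

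Spots were also grouped into regions within each section by clustering that left out the 10 genes and all marker lists, and 32 regions of at least 20 spots were compared. At day 3 the highest levels of 8 members were in region 6 (304 spots, led by Thbs2, Cthrc1 and Aspn, genes of matrix-making cells), which was also the deepest, with a median of 30321.5 UMIs per spot. Myog had 493 CPM there (479 to 507), Myod1 311 (300 to 323), Mymk 146 (138 to 153), Mymx 101 (94.6 to 108) and Pax7 10.1 (8.20 to 12.4). Myf6 had 41.0 CPM in the same region (37.0 to 45.3), its lowest of that day, against 374 (361 to 388) in region 1, where Mef2c was highest too (173 CPM). The region richest in Myog therefore held least Myf6 and least Mef2c (61.9 CPM) of the day 3 regions. Monocyte/macrophage genes summed to 15982.3 CPM in region 6 and 2580.64 in region 1, and adult myofibre genes to 15638.5 and 161292. The part of these cells in the members' levels was not tested. The share of all genes highest in region 6 was not counted, so the count of 8 members has no background.

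At day 1, region 3 (448 spots, led by Gadd45a, Nes and Plk2) had 97.6 CPM of Myog (87.5 to 109) and held 64.2% of the section's Myog UMIs. Myod1 was highest in it as well (109 CPM, 98.6 to 121), and 10 of the 17 Mymk UMIs of day 1 lay there. Myf6 was highest in region 4 (432 CPM, 403 to 462), led by Cited4 and Dusp5, with region 3 next (370 CPM, 350 to 391). At day 7, region 8 (185 spots) was led by Gpnmb, Spp1 and Mmp12, genes of macrophages in repairing tissue, followed by Casq2, Itgax and Tnni1. It had 273 CPM of Myog (259 to 287), 158 of Mymk (148 to 169) and 295 of Mef2c (280 to 309). The same region held 48.2% of the Myog UMIs and 54.0% of the Mymk UMIs of that section. Embryonic sarcomere genes summed to 3923.86 CPM there, the most of the day 7 regions, with region 3 next at 980.446. Monocyte/macrophage genes summed to 5072.61 CPM in region 8 and adult myofibre genes to 148062. The part of these cells was not tested. At day 7 Ncam1 was as high in region 5 (63.7 CPM, 56.1 to 72.0), led by the cartilage and bone genes Col9a2, Ibsp and Col27a1, as in region 8 (62.7 CPM, 56.2 to 69.8). Region 5 also had 84.9 CPM of Myog (76.1 to 94.4) and 10.5 of Mymx (7.56 to 14.2), second in that section for both, with Myf6 at its lowest (36.0 CPM). At day 0 the 6 regions differed little, with Myog between 41.0 and 63.0 CPM.

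**Figure D5:**
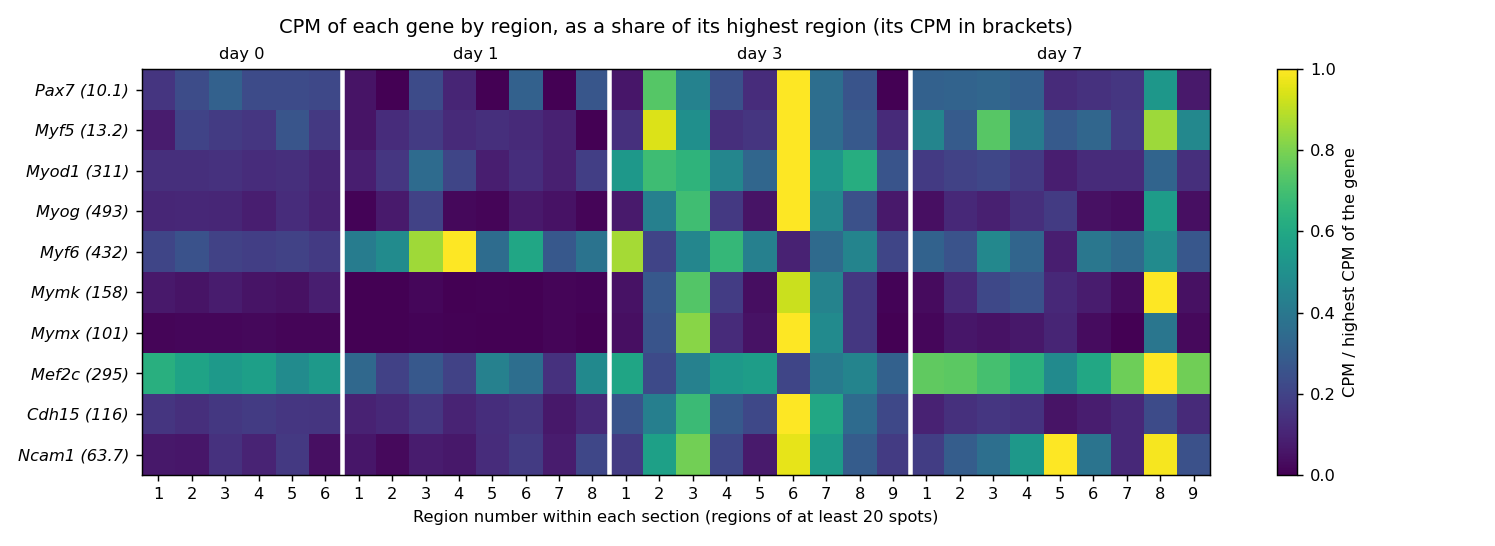
Level of each gene in the 32 regions of at least 20 spots, grouped by section, as CPM divided by the gene's own highest regional CPM (given in brackets); regions are numbered within a section and numbers do not match between sections. Day 3 region 6 and day 7 region 8 are bright for Myog, Mymk and Mymx, whereas Myf6 is brightest in day 1 region 4.

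Across these 32 regions, as a description over points that share sections and depth, Mymk and Mymx had the highest likeness of any pair of members (Pearson's r of log2(CPM + 5) of 0.922), followed by Myod1 with Cdh15 (0.883) and Myog with Mymx (0.872). Myf6 had r between -0.262 and 0.205 with the other 9 members. The genes most like a member were Pnmal2 (0.953) and Chrng (0.939), the embryonic subunit of the muscle acetylcholine receptor, for Mymk, and Msln (0.963) and Chrng (0.954) for Mymx. For Pax7 the closest was Fgfr4 (0.840), for Myf5 it was Pak1 (0.847) and the Notch ligand Dll1 was close behind (0.829), for Myog Pnmal2 (0.883), for Myf6 the sarcomere-associated Pdlim3 (0.903), for Ncam1 Vash2 (0.940) and for Mef2c Ppm1b (0.905).

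Sharing of spots was counted for 12 pairs of members and for no other genes, so the number of pairs past 2-fold has no background. Of the 12, set against each other in thinned spots at day 3, 3 shared spots over 2-fold more often than the product of their shares. These were Mymk and Mymx (42 spots, 3.38-fold, 2.46 to 4.5996), Myog and Mymx (82 spots, 2.35-fold, 1.88 to 2.92) and Myog and Mymk (117 spots, 2.29-fold, 1.91 to 2.75). Myod1 and Myog, which follow each other in the course of differentiation, shared 239 spots (1.26-fold, 1.11 to 1.42). Myog and Myf6 shared 160 spots, fewer than the product (0.776-fold, 0.662 to 0.900), and so did Myog and Mef2c (125 spots, 0.834-fold, 0.696 to 0.989). At day 7 Myog and Mymk shared 25 spots (2.80-fold, 1.80 to 4.10). Pax7 and Myf5 were too rare for this count after thinning. Without thinning they shared 66 spots at day 3 (3.04-fold, 2.36 to 3.86), a value in which deeper spots raise both genes.

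Single spots held different combinations of these genes. The spot of day 3 with most Myog had 106 Myog UMIs among 58634, together with 41 of Mymk, 24 of Mymx, 22 of Myod1 and 109 of Myh3, and 2 of Mef2c. The spot of that day with most Mef2c (18 UMIs) also held 34 of Myog, 16 of Myod1 and 14 of Mymx. The spot of day 7 with most Myog had 86 Myog and 40 Mymk UMIs among 39013. In contrast, the day 3 spot with most Myf6 (32 UMIs among 30521) had 1 Myog UMI, 6 of Myod1 and 0 of Mymk, Mymx and Myh3. The day 7 spot with most Mef2c had 91 UMIs of it among 32959, with 44 of Myog and 140 of Myl4. Before injury the highest Myog spot had 21 UMIs among 32516, with 3 of Mymk and 1 of Myh3, so a spot rich in Myog at day 0 held little embryonic myosin.

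The day 0 spot with most Ncam1 (10 UMIs among 45320) led to a further division of spots, chosen after its values were seen. Chrne encodes the adult subunit of the acetylcholine receptor and marks neuromuscular junctions. In the 430 spots of day 0 with a Chrne UMI, Ncam1 had 12.03 CPM against 4.04 in the other 1677 spots (2.98-fold, 2.32 to 3.82), while Myod1 (42.3 against 41.1 CPM), Myf6 (87.9 against 90.8) and Mymk (9.93 against 10.0) did not differ beyond counting error. At day 3 the Ncam1 difference was 1.27-fold (1.09 to 1.47) and at day 7 it was 1.46-fold (1.29 to 1.65). At day 7 other members were higher in the Chrne spots too, with Mymk at 1.74-fold (1.56 to 1.93), Myog at 1.51-fold (1.40 to 1.63), Myod1 at 1.24-fold and Myf6 at 1.17-fold. At day 1, in 58 spots, the Ncam1 difference was 4.84-fold (2.32 to 9.12) from 11 UMIs, and Myog was 2.45-fold higher in the same spots (1.68 to 3.47).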

How the data were processed

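UMI counts per gene and spot had been made by the authors with 10x Genomics Space Ranger on mm10, and the deposited count tables, whose headers name version 1.2.0 (the study's methods name another), were used as raw counts for 4 sections. A section is 1 sample per day, so no test between days was run. CPM was a gene's UMIs over all UMIs of the section. Genes with at least 10 UMIs in both sections of a pair together were compared, with a floor of 3 UMIs, and 2-fold was the rule for a call. Ratios of counts had exact conditional binomial intervals, levels exact Poisson and shares Clopper-Pearson intervals (95%), which cover counting error only, since spots of a section and molecules of a cell are not independent. Sections were also scaled with edgeR 4.0.16 TMM factors and DESeq2 1.42.0 size factors. Spots were thinned to 2000 UMIs in 20 draws. Regions came from Scanpy 1.11.5 with leidenalg 0.10.2 (2000 variable genes, 30 components, 15 neighbours, resolution 0.5), without the 10 genes and the marker lists, and doublets were not called because spots hold several cells. Regions are named by number and leading genes. Marker lists (15 lists, 116 genes, all found), the 10 members and the rule for named genes (the 3 with most UMIs of a list, the 3 most alike per member) were chosen with earlier results of these data known. Steps that compute statistics were tested on simulated data. Some listed genes are not reported here.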

Additional observations from a re-analysis of the deposited data

How the results depend on the processing

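Of 78 alternative values of the counts of members, 67 stayed within 1.5 times the reported count and 11 did not. Members over 2-fold lower at day 1 than at day 0 numbered 2 (11.4% of all genes), and 4 with TMM factors (15.1%), with DESeq2 size factors (14.9%) and with a total that left out mitochondrial, haemoglobin and adult myofibre genes (14.5%). Members lower at day 3 than at day 0 numbered 0 (8.26% of all genes), and 1 with TMM factors (16.4%) and with DESeq2 size factors (16.6%). In the day 1 spots richest in embryonic sarcomere RNA the count went from 2 to 1 with only spots of at least 1000 UMIs, and to 1 with the list without Mybph, an alternative chosen after seeing the data. Pairs of members sharing spots over 2-fold went, without thinning, from 0 to 1 at day 0, from 0 to 2 at day 1 and from 1 to 4 at day 7, where thinning to 4000 UMIs gave 3. The cause was not tested. Of 250 alternative ratios of single members, 100 moved by more than their counting interval. The moves came from the changes of scaling. Dropping the minimum and the floor left every member ratio as it was, and keeping only spots of at least 1000 UMIs hardly changed them. The share that moved therefore understates the effect of scaling. Alternatives that could not change a count are also among the 78. Depth limits Pax7, Myf5, Mymk and Mymx most, and day 1 most of all sections. No paired analysis was possible because each day is 1 section with no replicate.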
